A study of Caenorhabditis elegans with 2 samples.

Results

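The small nuclear RNA (snRNA) genes of Caenorhabditis elegans, among them the spliced leader genes sls-1 and sls-2, were examined for regions bound by the tagged zinc finger protein ZTF-22. All genes that the Ensembl annotation of WBcel235 calls snRNA, or whose name begins with sls-, were taken, which gave 129 of 46890 annotated genes on the nuclear chromosomes. They fell into 12 sls-1 genes, 18 sls-2 genes and 99 other snRNA genes, 10 of the latter named smy-. Each gene was given the highest ranked region whose summit lay within 500 bp of it, where rank 1 is the region with the highest signal value in its list.

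The chromatin came from 1 group of whole young adults, 68 hours old and of mixed sex, synchronised as starved L1 larvae after bleaching, with 2 biological replicates. The strain was OP676, which carries the unc-119 allele tm4063 and the transgene wgIs676, made of a ztf-22::TY1::EGFP::3xFLAG fusion together with wild-type unc-119(+). Its transgene is an added copy, so the tagged protein was recovered and the untagged ZTF-22 of the same animals was not measured, and every tissue of the animal was pooled. Sonicated chromatin, with fragments of 200 to 800 bp, was precipitated with an antibody to GFP, and the same control alignment served both replicates. A strain without the transgene was not analysed here, and there was no other condition.

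Spliced leader RNAs donate their first bases to messenger RNAs by trans-splicing. SL1, from the sls-1 genes, is joined to the first exon of many messenger RNAs, whereas SL2, from the sls-2 genes, is joined mainly to downstream genes of operons. Most other known snRNAs belong to the spliceosome, and the smy- genes encode SmY RNAs that associate with Sm proteins. In animals, snRNA promoters are recognised by the snRNA activating complex (SNAPc) at a proximal sequence element upstream of the start.

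The leaders of the sls genes, in capitals below, show how sls-1 and sls-2 differ. Gene sequences, 5′ to 3′ from the RefSeq genome of WBcel235 (ce11), are given for sls-2.1, whose region was among the strongest, for sls-2 genes with other leaders that had optimal peaks, and for a full sls-1 copy.
sls-2.1, chrII:5844865-5844974, + strand: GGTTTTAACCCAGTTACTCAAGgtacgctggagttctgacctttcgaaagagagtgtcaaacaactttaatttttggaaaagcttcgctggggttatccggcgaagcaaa
sls-2.8, chrIII:12250465-12250575, + strand: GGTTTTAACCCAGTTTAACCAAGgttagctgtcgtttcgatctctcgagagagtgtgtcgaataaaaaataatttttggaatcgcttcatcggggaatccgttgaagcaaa
sls-2.15, chrIII:11091010-11091121, + strand: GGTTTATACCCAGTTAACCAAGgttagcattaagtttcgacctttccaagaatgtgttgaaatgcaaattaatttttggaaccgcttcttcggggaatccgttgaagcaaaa
sls-1.2, chrV:17131064-17131161, - strand: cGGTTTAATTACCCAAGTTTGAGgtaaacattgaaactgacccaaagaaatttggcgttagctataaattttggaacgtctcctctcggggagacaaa

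The 100 bases upstream of sls-2 genes are given next, because the genes of highest rank share a stretch there. The first 3 are on chromosome II and carry the same leader, the next pair lie on chromosome III and had optimal peaks, and the last pair, on chromosome IV, had none. Capitals mark a word of 15 bases, which is the longest that the first 3 and sls-2.4 all hold, the word TGTC where it begins 45 to 60 bases before the gene, and the word AACCC where it begins 54 to 70 bases before it, all on the transcribed strand. The first 3 share a longer stretch, left in lower case, which is the last 17 bases before the gene.
sls-2.1, chrII:5844765-5844864, + strand: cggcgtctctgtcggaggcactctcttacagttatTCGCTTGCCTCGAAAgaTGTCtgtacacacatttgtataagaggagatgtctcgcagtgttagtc
sls-2.2, chrII:5543498-5543597, + strand: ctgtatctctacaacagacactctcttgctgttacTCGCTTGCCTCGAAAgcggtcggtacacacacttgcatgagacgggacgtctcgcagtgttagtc
sls-2.3, chrII:5544274-5544373, - strand: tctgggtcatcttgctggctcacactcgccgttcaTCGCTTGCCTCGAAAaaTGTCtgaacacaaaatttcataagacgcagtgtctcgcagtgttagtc
sls-2.8, chrIII:12250365-12250464, + strand: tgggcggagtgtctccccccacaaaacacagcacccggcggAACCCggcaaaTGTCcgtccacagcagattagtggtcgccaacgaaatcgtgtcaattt
sls-2.15, chrIII:11090910-11091009, + strand: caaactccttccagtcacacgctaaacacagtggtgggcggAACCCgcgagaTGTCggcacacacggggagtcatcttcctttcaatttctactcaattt
sls-2.12, chrIV:5261813-5261912, + strand: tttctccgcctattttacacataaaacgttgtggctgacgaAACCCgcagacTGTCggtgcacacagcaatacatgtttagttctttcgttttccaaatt
sls-2.17, chrIV:5317369-5317468, - strand: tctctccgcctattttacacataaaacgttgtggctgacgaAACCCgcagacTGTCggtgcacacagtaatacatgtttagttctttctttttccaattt

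The upstream sequences of other snRNA genes and of an sls-1 copy are marked in the same way, to show which of these words they hold. The first 3 genes and ZK1251.14 had optimal peaks, R07E5.16 had a weaker region and sls-1.2 had none.
sup-6, chrII:12944968-12945067, - strand: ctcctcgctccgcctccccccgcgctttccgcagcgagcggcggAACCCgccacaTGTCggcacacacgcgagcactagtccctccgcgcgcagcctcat
sup-39, chrII:6968559-6968658, - strand: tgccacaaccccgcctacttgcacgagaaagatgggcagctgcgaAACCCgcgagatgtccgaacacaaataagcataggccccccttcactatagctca
W05B2.8, chrIII:10989579-10989678, + strand: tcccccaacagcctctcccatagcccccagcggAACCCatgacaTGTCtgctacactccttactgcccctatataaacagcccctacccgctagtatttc
R07E5.16, chrIII:4414085-4414184, + strand: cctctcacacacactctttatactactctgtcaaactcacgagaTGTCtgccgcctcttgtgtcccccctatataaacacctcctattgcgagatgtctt
ZK1251.14, chrIV:9682779-9682878, + strand: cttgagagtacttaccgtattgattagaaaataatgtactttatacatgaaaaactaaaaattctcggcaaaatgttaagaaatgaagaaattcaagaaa
sls-1.2, chrV:17131162-17131261, - strand: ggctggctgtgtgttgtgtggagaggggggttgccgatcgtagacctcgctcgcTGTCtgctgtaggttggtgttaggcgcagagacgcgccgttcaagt

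At some of the sls-2 genes the tagged protein was found in regions of high rank, whereas no sls-1 gene had a region in any list. The authors' optimal peaks, the 952 regions of highest signal value in the pooled list, lay within 500 bp of 7 of 18 sls-2 genes (38.9%), 5 of 99 other snRNA genes (5.05%) and 0 of 12 sls-1 genes. Over all 129 genes this made 12, or 9.30%, beside 2.79% of all annotated genes and 5.00% of the 7553 other non-coding genes of at most 200 bp, piRNA genes left out. The share at the other snRNA genes was therefore near that of short non-coding genes, and that at the sls-2 genes was above it. With 1 group and gene copies that share sequence, no test was made, and these are descriptions of 2 libraries.

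Each candidate list held 30000 regions, with weak ones that the authors kept as background. In the pooled list, 65 of 129 genes (50.4%) had a region within 500 bp, beside 41.7% of all genes and 48.0% of the short non-coding genes. A region of any strength was therefore about as common at these genes as at other short genes. By class the pooled list held 13 of 18 sls-2 genes (72.2%) and 52 of 99 other snRNA genes (52.5%). Replicate 1 held 13 sls-2 and 55 other snRNA genes, which is 68 of 129 (52.7%), beside 43.2% of all annotated genes. Replicate 2 held 13 and 45, which is 58 of 129, beside 41.5% of all annotated genes. In none of these 3 lists were 51 genes found, namely all 12 sls-1 genes, 4 sls-2 genes and 35 others, and 47 genes were found in all 3. Matching shares over all annotated genes were not counted, so it cannot be said whether these numbers are unusual.

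Among genes with a region, the sls-2 genes ranked higher. Their median best rank was 901 in the pooled list, 934 in replicate 1 and 944 in replicate 2. The other snRNA genes had medians of 8492.5, 12656 and 7651, beside 10503, 10924 and 10670 for all genes with a region. In both replicates the sls-2 median thus lay just inside the strongest 952 regions, and the median of the other snRNA genes was far outside them. The sls-2 medians cover only the 13 of 18 genes with a region in the list. Taking the 952 strongest regions of each replicate in place of the optimal peaks, 11 of 129 genes (8.53%) were called in replicate 1 and 13 (10.1%) in replicate 2, against 2.85% and 2.70% of all genes. The sls-2 count was 7 in each replicate, the count of other snRNA genes was 4 and 6, and the sls-1 count was 0 in both.

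**Figure D1:**
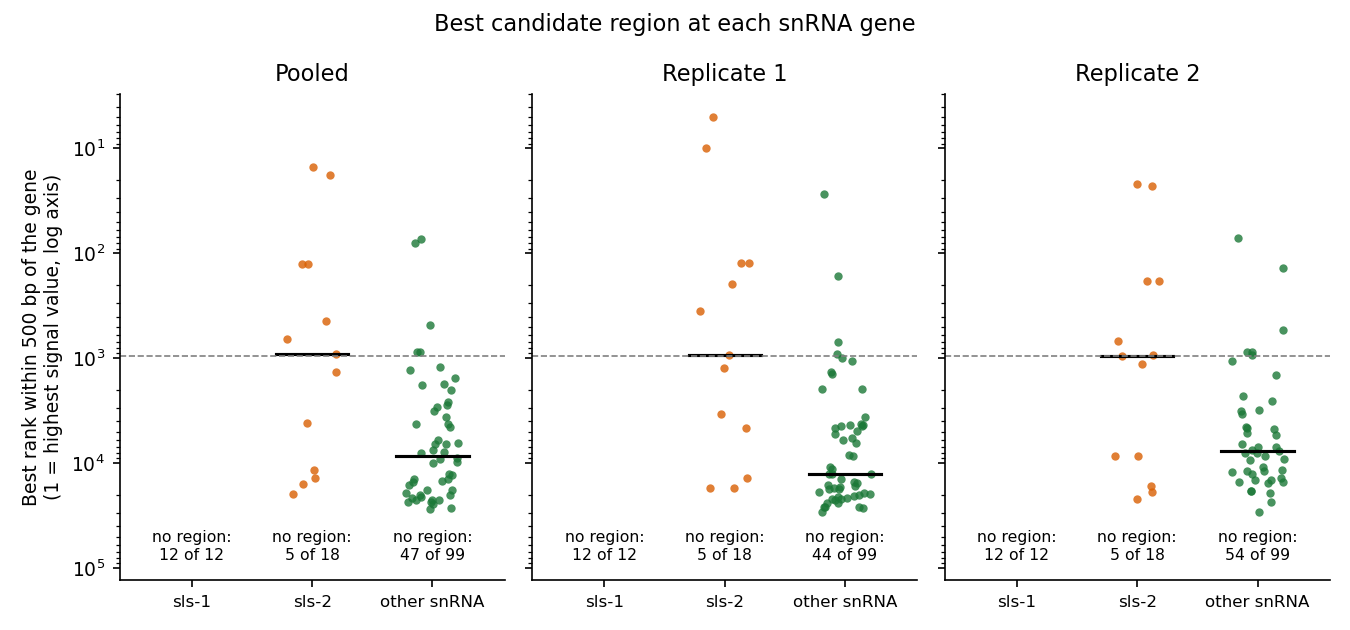
Best rank (log axis, 1 at the top) of a region within 500 bp of each sls-1, sls-2 and other snRNA gene, in the pooled list and in each replicate; black bars are medians of genes with a region and the dashed line is rank 952. The 12 sls-1 genes have no point in any panel, and the sls-2 genes reach ranks 15, 5 and 22.

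Within the sls-2 class, the regions of highest rank by best summit lay at the 4 genes that encode the common SL2 leader, that shown above for sls-2.1. At sls-2.4 (I:4172206-4172315) the signal value was 343 in the pooled list, 127 in replicate 1 and 222 in replicate 2, which are ranks 15, 5 and 23. At sls-2.1 (II:5844865-5844974) it was 330, 105 and 226, with ranks 18, 10 and 22. These were among the strongest regions of the whole genome in both replicates. Signal values are on a scale of their own in each list, with medians of 48.4, 19.2 and 34.5, so lists were compared by rank.

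The genes sls-2.2 (II:5543598-5543707) and sls-2.3 (II:5544164-5544273) lie on opposite strands and end toward each other. The strongest region near them, with a summit at position 5543694 inside sls-2.2, had a signal value of 198 in the pooled list, 62.8 in replicate 1 and 133 in replicate 2, or ranks 127, 124 and 184. That summit also counts as the best of sls-2.3, whose start is 579 bp away. A separate optimal summit at 5544362, 89 bp upstream of sls-2.3, had a signal value of 139 and rank 463, with ranks 555 and 571 in the replicates. Each of the 4 genes thus had a summit of its own among the optimal peaks.

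The remaining 14 sls-2 genes carry 10 other leaders, and 3 of them had an optimal peak. In the pooled list 9 of the 14 had a region, with best, median and worst ranks of 437, 4152 and 19712, whereas the 4 genes with the common leader ranked from 15 to 127. Replicate 1 gave ranks of 5 to 124 for the 4 and 198 to 17377 for 9 of the 14, and replicate 2 gave 22 to 184 and 688 to 22095. By best summit the ranks of these gene groups did not overlap in any list, but by its own summit sls-2.3, at rank 463, came after sls-2.8, at 437. Grouping by leader was chosen after the values were seen.

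The gene sls-2.8 (III:12250465-12250575) had a signal value of 141 in the pooled list, 48.7 in replicate 1 and 89.7 in replicate 2, or ranks 437, 355 and 688. Its summit lay 59 bp upstream of the start. At sls-2.15 (III:11091010-11091121), inside an intron of W09D6.5, the values were 124, 38.2 and 80.8 and the ranks 660, 934 and 944. Its summit lay 173 bp downstream of the start, beyond the end of the gene and in an exon of W09D6.5. Both replicates placed these regions inside their strongest 952.

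The third gene, sls-2.9 (I:13297877-13297985), stood just inside the optimal list, with a signal value of 112 and rank 901 in the pooled list. Replicate 1 had its strongest region 7 bp downstream of the start, with signal value 56.1 and rank 198, and replicate 2 had it at -190 bp, that is upstream, with 76.0 and rank 1136. The replicates thus differed on where the signal was highest, with summits 197 bp apart. The pooled summit, 121 bp upstream, also lay 11 bp from the start of the transfer RNA gene M01E5.t1. Just outside the optimal list was T10H4.16, which joined no other snRNA gene at 80% sequence identity, with a signal value of 102 and rank 1218, and ranks of 5215 and 1435 in replicates 1 and 2.

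Several of the remaining sls-2 genes share a leader, and none of those had an optimal peak. The genes sls-2.5, sls-2.6 and sls-2.7, which carry the same leader, ranked 1354 at best in the pooled list. The region at sls-2.6 was strong in replicate 2, at rank 938, and weak in replicate 1, at rank 17307, and the start of the protein-coding gene hgo-1 lay 88 bp from its summit. The pair sls-2.10 and sls-2.11, alike in leader, ranked 15919 at best, and the pair sls-2.12 and sls-2.13, also alike, ranked 11623 at best. By chromosome, the optimal peaks covered 2 of 4 sls-2 genes on chromosome I, 3 of 3 on II, 2 of 6 on III and 0 of 5 on IV.

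The long word in capitals upstream of sls-2.1, sls-2.2 and sls-2.3 is the longest, at 15 bases, that these windows and that of sls-2.4 all hold. Searched on both strands, it occurred 4 times in the genome, each time upstream of 1 of these genes. Since the word was taken from genes already known to have optimal peaks, its places say nothing further about where peaks lie. Among windows of 100 bases upstream of all 46890 genes, 4 held it, or 0.00853%. The 4 genes are near copies of each other, so the word cannot be told apart from the rest of the sequence they share.

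Outside the sls classes 5 genes had an optimal peak, and the strongest were at sup-6 and W05B2.8. The gene sup-6 (II:12944803-12944967), a U1 snRNA locus known from suppressor mutations, lies in an intron of F58G1.7. It had a signal value of 223 in the pooled list, 58.1 in replicate 1 and 162 in replicate 2, or ranks 73, 166 and 72. The best summit lay 163 bp downstream of the start, at the end of the gene, and another optimal summit lay 40 bp upstream of it, with signal value 134 and rank 519, and with ranks 895 and 531 in the replicates. Summits thus lay at both ends of the gene, 203 bp apart.

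At W05B2.8 (III:10989679-10989780), in an intron of the dynein heavy chain gene dhc-4, the signal value was 220 in the pooled list, 87.7 in replicate 1 and 142 in replicate 2. These are ranks 80, 27 and 138, and the summit lay 25 bp upstream of the start. The nearest protein-coding start was that of the collagen gene col-94, 1781 bp away. W05B2.8 belongs to a family of 23 genes joined at 80% sequence identity or more, of 93 to 108 bp, of which 11 had a pooled region and 1 had an optimal peak. R07E5.16 of the same family had a signal value of 90.8 and rank 1749, with ranks 1404 and 2298 in the replicates.

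The gene sup-39 (II:6968394-6968558), also a U1 locus known from suppressor mutations, lies in an intron of C15F1.5. Its pooled summit, 43 bp downstream of the start, had a signal value of 114 and rank 877, and replicate 2 gave 82.5 and rank 877. Replicate 1 had its strongest region 220 bp downstream of the start, with 32.4 and rank 1943, outside its 952 strongest. The microRNA-named gene mir-1831, 22 bp long and annotated as snRNA, lies inside sup-39 and takes its values from the same summit, so it adds no region of its own. At ZK1251.14 (IV:9682879-9682982) the values were 137, 38.3 and 97.3 and the ranks 483, 918 and 533. Its summit lay 175 bp upstream, in an intron of the insulin-like peptide gene ins-7 and 141 bp from the start of that gene.

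Over the 12 genes, 9 were inside the strongest 952 regions of both replicates, 6 of them sls-2 genes. The exceptions were sls-2.9, outside in replicate 2, and sup-39 with mir-1831, outside in replicate 1. The strongest summits of the replicates lay 0 to 197 bp apart at the 12 genes, with a median of 27.5 bp and 9 within 100 bp. In these figures the values of sls-2.3 and mir-1831 repeat those of sls-2.2 and sup-39, whose summits they share. At the 35 weaker genes found in all lists, the median was 106 bp. Optimal peaks were kept for reproducibility between these same replicates, so agreement at the 12 genes is partly set by that choice. Matching figures for all optimal peaks were not counted. The largest rank differences between the replicates were at sls-2.18 (4640 in replicate 1 and 22095 in replicate 2), C27H5.11 (23766 and 6955) and sls-2.6, all without an optimal peak.

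**Figure D2:**
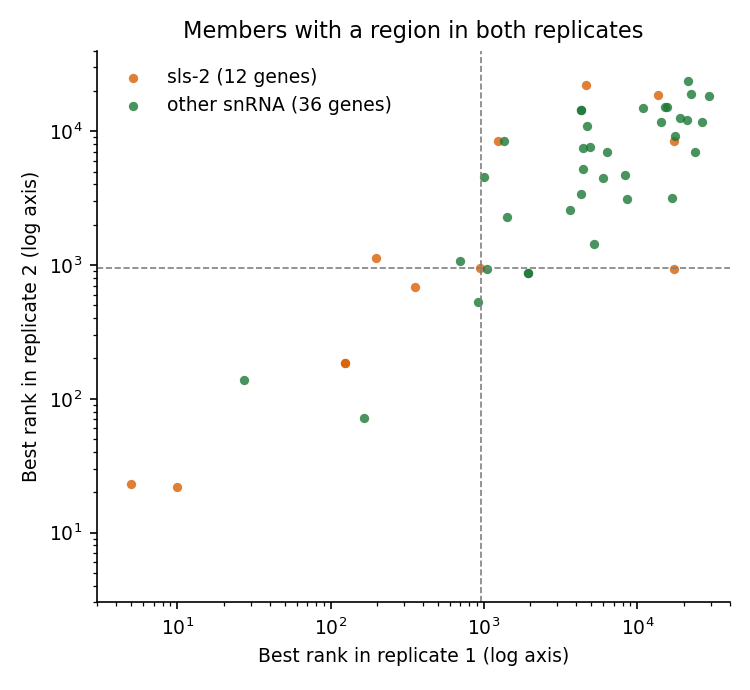
Best rank in replicate 1 against best rank in replicate 2 (log axes) for sls-2 genes (12 points) and other snRNA genes (36 points) with a region in both replicates; dashed lines mark rank 952. Points at lower left are strong in both replicates, and sls-2.4 and sls-2.1 are lowest, with ranks of 5 to 23.

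Only summits within 500 bp of a gene were counted, which limits the distances given here. Distances at other genes were not measured. At the 12 genes with an optimal peak the median distance from summit to gene was 28 bp, with 4 summits inside the gene and 9 within 100 bp. At the 53 genes with a weaker region it was 66 bp, with 16 inside and 33 within 100 bp. Among the 12, sls-2.3 and mir-1831 were counted by the best summits that they share with sls-2.2 and sup-39. Of the 12 genes, 5 lie in introns of protein-coding genes and 7 overlap none. A protein-coding start lay within 500 bp of the summit at 2 of the 12 genes, sls-2.8 (tim-1) and ZK1251.14 (ins-7), and at 16 of the 53. At the other 10 none lay within that distance.

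Some summits lay nearer to the start of another annotated gene than to the start of the snRNA gene. The sls-2.4 summit, 89 bp downstream of its start, was 11 bp from the start of the non-coding gene R12E2.18, and the sls-2.2 summit was 4 bp from that of C17C3.23. Counting only best summits with no nearer start of a gene outside the snRNA genes, 7 of 12 genes were left, among them 3 of the 7 sls-2 genes and 4 of the 5 others. Which of the overlapping transcripts a region belongs to could not be told from these lists. The usual region width in the pooled list was 390 bp. The region at sls-2.4 was narrower, at 98 bp, but its summit lay inside both sls-2.4 and R12E2.18.

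**Figure D3:**
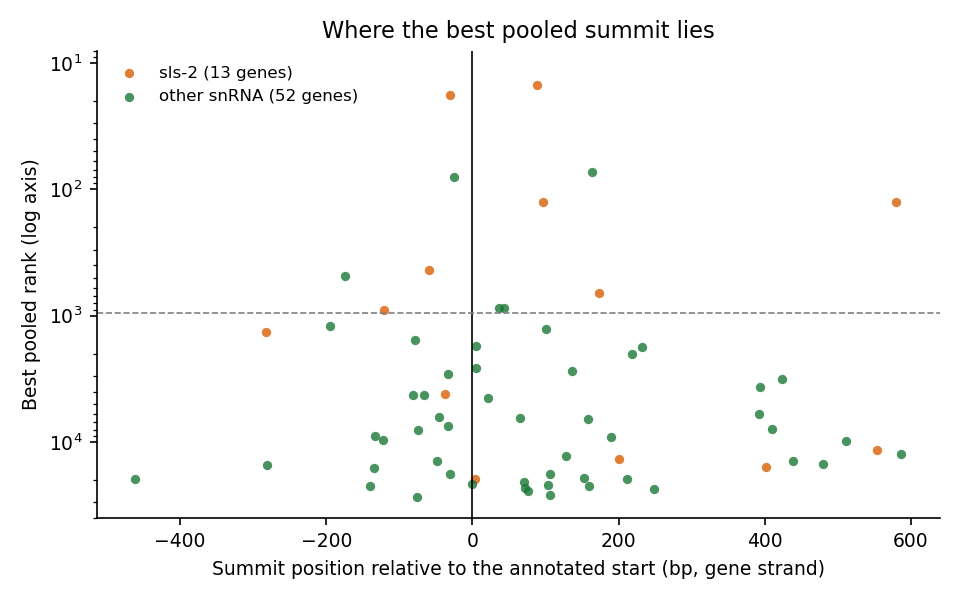
Position of the best pooled summit relative to the annotated start (bp, on the strand of the gene, positive downstream) against its rank (log axis, 1 at the top) for 13 sls-2 and 52 other snRNA genes; the dashed line is rank 952. Summits inside rank 952 lie on both sides of the start, from 175 bp upstream at ZK1251.14 to 173 bp downstream at sls-2.15, apart from the sls-2 point at 579 bp, which is the summit that sls-2.3 shares with sls-2.2.

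The remaining snRNA genes were grouped by sequence at 80% identity, into 7 families of at least 2 genes that cover 80 of the 99, and 19 single genes. A family of 13 genes of 156 to 170 bp, which includes sup-6 and sup-39, had pooled regions at 10 and optimal peaks at 2, with a median rank of 4273. A family of 19 genes of 185 to 187 bp had regions at 8 and no optimal peak, and its best, Y57G11C.35, ranked 3653. A family of 12 genes of 117 to 126 bp had regions at 9, led by F38E11.10 at 1555, and a family of 5 genes of 142 to 144 bp had regions at 3, led by C52E4.8 at 1290. The files name no U class for these IDs. Over all annotated genes 41.7% had a pooled region, and of the short non-coding genes 48.0% did. The families, that of W05B2.8 included, and the smy- genes are small groups, and differences between them were not tested. Of the 10 smy- genes, 4 had a pooled region, and the best, smy-1, ranked 3184 in the pooled list, 4267 in replicate 1 and 3410 in replicate 2. That pooled summit lay 347 bp from smy-1, inside the protein-coding gene C33A12.3 and 50 bp from the start of smy-2, which is annotated as a small nucleolar RNA gene and so is not counted here.

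No sls-1 gene had a summit within 500 bp in any list. The 12 genes lie in a tandem array at V:17118154-17132107, a stretch of 13954 bp that also holds copies of the 5S ribosomal RNA gene rrn-4. No summit of any list lay in the array. The gap between the pooled summits on either side was 22626 bp, beside a median gap of 1974.5 bp on chromosome V, where 37 of 6174 gaps were longer. In replicate 1 it was 23831 bp, with 23 of 6062 longer, and in replicate 2 it was 16905 bp, with 88 of 6118 longer. The array was thus among the longest stretches of the chromosome with no candidate region, weak ones included.

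The array is also repeated sequence. The 10 sls-1 copies of 98 bp are identical, and the other 2 models, sls-1.1 and sls-1.5, are the last 68 bp of the same sequence without the leader. Among the 50-base words of an sls-1 gene and 250 bp on either side, the median share that occurs once in the genome was 0%, with a range of 0% to 31.5%, and all 12 genes were under 50%. For the 18 sls-2 genes, which all differ in sequence, the median was 94.6% and none was under 50%. How reads that match several places were treated is not given in the sources used here, so lack of binding at sls-1 and lack of placeable reads cannot be told apart. None of the 14 rrn-4 genes in or beside the array had a region, and the 1 of 16 that had one, rrn-4.15 at rank 9670, lies elsewhere on chromosome V.

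Over all 129 genes, 18 had under 50% of such words occurring once, and 1 of these had a pooled region, Y47H9A.2 at rank 27479. Of the 111 others, 64 (57.7%) had a pooled region and 12 had an optimal peak. Within the other snRNA genes the median share was 87.4% with a region and 87.1% without. The 18 include the 12 sls-1 genes, so they come mostly from 1 array. Among all 46890 annotated genes 1079 were under 50%, and their share with a pooled region was not counted. The most repeated copies thus lacked regions, while over all other snRNA genes the median hardly differed between genes with and without one. The part of repeated sequence in the result was not tested.

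**Figure D4:**
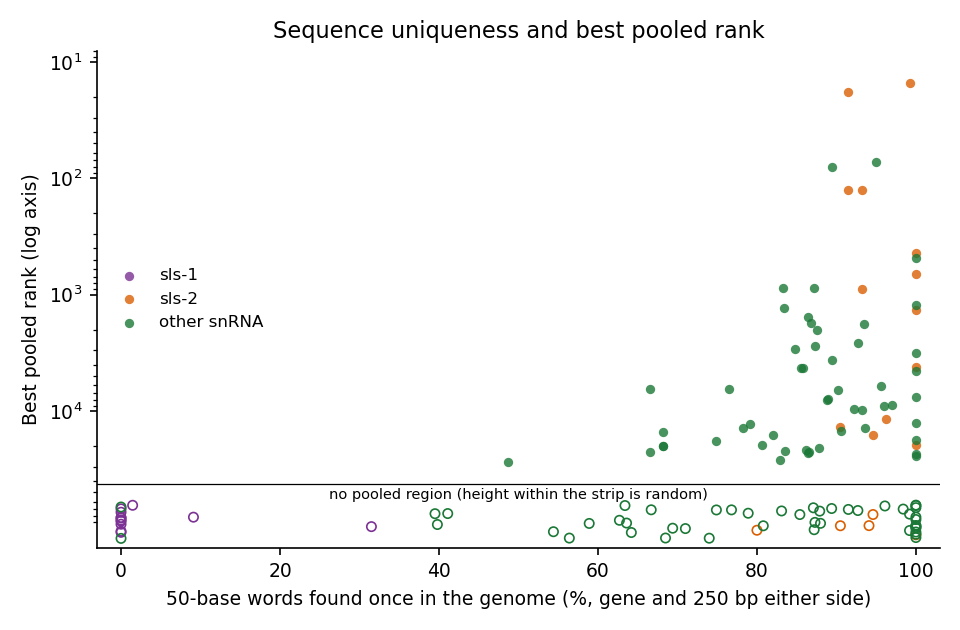
Share of 50-base words of each gene and 250 bp on either side that occur once in the genome (x axis, %) against best pooled rank (y axis, log, 1 at the top) for sls-1, sls-2 and other snRNA genes; open circles in the strip below the line have no pooled region and random height. The sls-1 genes sit at the left with no region, at 31.5% or less, and the 12 genes with an optimal peak lie between 83.3% and 100%.

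Words at fixed places upstream were common among snRNA genes whether or not a peak was there. The word TGTC beginning 45 to 60 bases before the gene was found at 86 of 129 genes (66.7%), beside 5.14% of all genes, and at 15 of 18 sls-2, 10 of 12 sls-1 and 61 of 99 other snRNA genes. It was held by 9 of 12 genes with an optimal peak and 77 of 117 without. The word AACCC beginning 54 to 70 bases before the gene was found at 47 genes (36.4%), beside 0.885% of all genes, at 10 of 18 sls-2 and 0 of 12 sls-1 genes, and at 6 of 12 genes with an optimal peak and 41 of 117 without. Both together were at 5 of 12 (41.7%) and 26 of 117 (22.2%), beside 0.183% of all genes. The 12 include mir-1831, which lies inside sup-39 and has nearly the same window, so that sequence enters the counts again. At mir-1831 both words fall within their bounds, but at sup-39 only AACCC does. These words and places were chosen after the sequences and peaks were seen, and a match is not a binding site.

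Proteins that make, process or work with snRNAs were examined by their own genes, using summits within 500 bp of a transcript start. Of 57 listed genes, 54 were found under the names used, 23 had a pooled region and 1 had an optimal peak. Of all protein-coding genes 36.4% had a pooled region there and 2.05% had an optimal peak, so both counts were near the background. The 1 was ints-4, a subunit of the Integrator complex that cleaves snRNA 3′ ends, with a summit at I:13663384 and ranks of 91 in the pooled list, 98 in replicate 1 and 148 in replicate 2. It was the single optimal peak among 10 Integrator genes. The 8 SNAPc genes had 1 region, at rank 11181, and the 7 Sm protein genes had 3. The best of these, at snr-4 with rank 1290, is the summit that also leads at the snRNA gene C52E4.8, 100 bp from its start and 495 bp from that of snr-4. The genes sna-1, sna-2 and sna-3, listed for the SL snRNP, had 1 region, at sna-2, and sut-2, listed with them, had none. The polymerase III list had 2 regions among 4 genes.

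**Figure D5:**
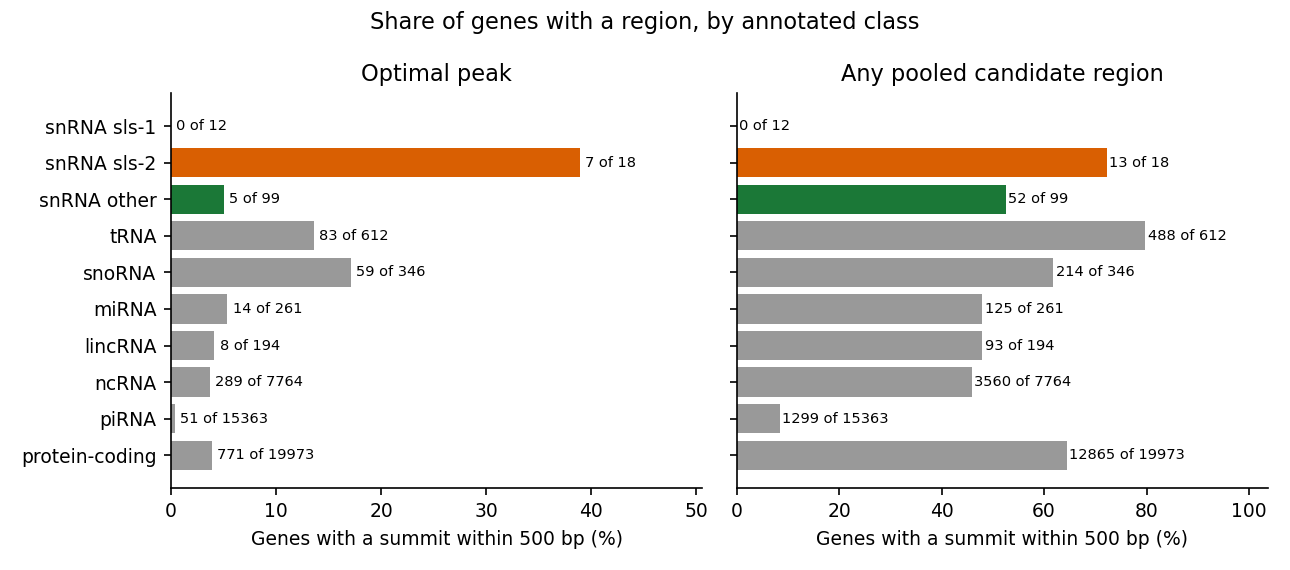
Share of genes (%) with an optimal peak (left) or any pooled candidate region (right) whose summit lies within 500 bp, by annotated class, with counts beside the bars; the 2 panels have different scales. The bar for sls-2 is the longest on the left, at 38.9%, next to 17.1% for snoRNA and 13.6% for tRNA genes, and the tRNA bar is the longest on the right.

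Among annotated classes, the share of genes with an optimal peak was 13.6% for transfer RNA genes (83 of 612) and 17.1% for small nucleolar RNA genes (59 of 346), both above the 5.05% of the other snRNA genes. Those classes are larger, and 18 sls-2 genes give a coarser share. Only sls-2.9 of the 12 snRNA genes had a tRNA gene within 500 bp of its summit, and none had a small nucleolar RNA gene.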

How the data were processed

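ChIP-seq of tagged ZTF-22 was deposited as region lists on ce11: 1 list per replicate, 1 on the pooled reads of both, and 1 of optimal peaks kept by irreproducible discovery rate (IDR), as the authors' deposited descriptions say. The authors' signal value of each region is from their caller. Its unit, and the caller, aligner, read filters and IDR threshold behind it, were not given in the sources used. The deposited q-value is given as −log10 q, between 2.09 and 2.86 for optimal peaks. The 952 optimal peaks were the pooled regions of highest signal value.

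Regions were ranked by signal value within each list. Genes came from Ensembl release 115 and names from RefSeq through WormBase gene IDs, which matched all 129 genes. A repeated Ensembl name is shared by many copies, so RefSeq names were used. The pseudogene sls-2.19 has no name in Ensembl and was not a member. Sequences were read from the RefSeq genome of WBcel235, and those of chromosome I are not printed. Positions count from 1. Scripts used Python 3.11.15, numpy 2.4.6, pandas 2.3.3, Biopython 1.88 and matplotlib 3.10.9, and the gene to summit search was tested on simulated data. Read depth is unknown, so no interval is given. There was 1 group, and no test across samples was possible. No snRNA gene lay within 25000 bp of ztf-22 or unc-119, the genes on the transgene.

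The genes and lists were chosen with earlier results of these data known. Genes were named by rule: every gene with an optimal peak, the best of each class, those on either side of the optimal threshold, the 3 whose ranks differed most between replicates, and pathway genes with an optimal peak. Others named here were chosen after their values were seen. Alternatives were other distances, the annotated start, overlap with the gene, unique copies, the stronger part of the optimal peaks, distinct summits and each replicate left out.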

Additional observations from a re-analysis of the deposited data

How the results depend on the processing

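No paired analysis was possible because there was 1 group. Of 52 alternative counts, 48 stayed within 1.5 times the count reported. Of 8 alternative medians of rank, 7 differed from the reported 7522 by less than 1761.4, the standard deviation of the replicates' medians. The replicates' own medians are among the 8. The 48 include every sls-1 count, all of which were 0 and were taken as unchanged. With unique copies only, no sls-1 gene was left to count. The alternative of distinct summits counted summits and not genes. With each replicate left out, the genes with a top region numbered 11 to 13 in all, 0 to 0 for sls-1, 7 to 7 for sls-2 and 4 to 6 for the other snRNA genes. The genes with any region numbered 58 to 68, and the median best rank lay between 7223.5 (replicate 2 alone) and 9714.5 (replicate 1 alone), against 7522 in the pooled list. With only the stronger 476 optimal peaks, 7 of the 12 genes were left, and 2 of the 5 other snRNA genes. Counting only summits with no nearer start of another gene, an alternative added after seeing the data, left 7 genes in all and 3 of the 7 sls-2 genes. Windows of 100 and 1000 bp gave 10 and 14 genes with an optimal peak. The cause of these shifts was not tested. The copies of repeated genes, the unknown read depth and the absence here of a strain without the transgene limit what the lists can show.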
